A study of Mus musculus with 4 samples.

Results

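The colonic ion, water and butyrate transport genes described here are 35 genes for exchangers, cotransporters, channels, pumps, aquaporins and monocarboxylate transporters. Each gene was read from its brightest probe set, taken among those that the array annotation assigns to that gene alone. By this rule 34 of the 35 genes were found among the 18193 genes named on the array, and Slc4a7 was not analysed here. The test took genes whose mean exceeded log2 2.81, the 40th percentile over the probe sets. This left 32 transport genes among 12659 genes tested, and Slc26a6 (log2 1.95 to 1.98) and Scnn1g (2.10 to 2.14) were on the floor of the scale in every array. Slc4a1 and Aqp3 passed the filter but lay close to the bottom, below the 60th percentile of log2 4.61. The means of the other 30 members exceeded it, though Scnn1b had only 4.63 in Cre-positive array 1.

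The surface of the colon takes up sodium and chloride through paired sodium-proton and chloride-bicarbonate exchangers in the apical membrane, and in the distal colon also through the epithelial sodium channel. Crypt cells secrete chloride through CFTR, which is fed by a basolateral sodium-potassium-chloride cotransporter and by potassium channels that hold the membrane potential. Water follows these ions, partly through aquaporins. Butyrate, which bacteria make from fibre, enters colonocytes through monocarboxylate transporters and is a main fuel of these cells.

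RNA came from the colon epithelium of 4 mice on 4 arrays, all after 5 days of 2.5% dextran sodium sulphate (DSS), a polymer in the drinking water that injures the colon epithelium. All mice carried floxed Stat3 alleles (Stat3flfl). Of these, 2 also carried Cre under the control of the villin promoter, which drives expression in intestinal epithelium (VilCre+, called Cre-positive), and 2 lacked it (VilCre-, called Cre-negative). No untreated mice and no mice with Cre but without floxed Stat3 were analysed here, so the deletion and the presence of Cre cannot be told apart, and cells outside the epithelium are not targeted by this promoter. The labels give neither age nor sex.

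Stat3 itself, the transcription factor targeted for deletion, had log2 intensities of 10.46 and 10.50 in the Cre-negative arrays and 9.28 and 8.16 in the Cre-positive arrays by its brightest probe set, a difference of -1.75 ± 0.43 (SE, limma adjusted p = 0.332). Another probe set gave a difference of -1.57, a dimmer one 1.29 in the opposite direction, and their positions relative to the floxed exons were not analysed here. Pairs of arrays correlated at 0.981 to 0.994 (Pearson, across the tested genes), with the lowest values for pairs that included Cre-positive array 1. Epithelial markers were present, with all 10 pan-epithelial markers above the 60th percentile. None of the 10 endothelial, 7 fibroblast, 6 smooth muscle or 6 named glial and neuronal markers did. Leukocyte signal was also present: 6 of 8 T and NK cell markers and 5 of 8 macrophage and monocyte markers lay above it. The brightest of these were Gzma (log2 9.27 to 9.64) and Cd14 (10.05 to 10.64). Other markers of these lists were dim, with Cd4 at 2.79 to 2.96, Adgre1 at 3.97 to 4.19, and Cd2, Cd68 and Itgam below the filter. The part of leukocytes in the transport gene values was not tested. The 3-prime to 5-prime signal ratio of Actb was 1.36 and 1.27 in the Cre-negative and 1.32 and 1.42 in the Cre-positive arrays.

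The comparison asked which transport genes differed between Cre-positive and Cre-negative epithelium under DSS. The 6 highest differences were those of the sodium-proton exchanger Slc9a3 (log2 difference 0.81 ± 0.41 SE), the anion exchangers Slc4a2 (0.53 ± 0.33) and Slc26a2 (0.45 ± 0.17), the water channel Aqp8 (0.42 ± 0.20), the potassium-chloride cotransporter Slc12a7 (0.36 ± 0.20) and the sodium-proton exchanger Slc9a2 (0.33 ± 0.10). At the lower end stood the water channel Aqp4 (-0.75 ± 0.47), the sodium channel subunit Scnn1b (-0.68 ± 0.36), the potassium channel subunit Kcne3 (-0.62 ± 0.52) and the butyrate transporter Slc5a8 (-0.49 ± 0.43), with 2 arrays per group throughout. No difference passed the test. Limma called 0 of the 32 members at an adjusted p under 0.05, and 0 of 12659 genes (0%). Without adjustment 1 member was under 0.05 on the higher side (Slc9a2), against 2.54% of all genes. On the lower side it was 1 member (Aqp3, a dim probe set), against 8.51% of all genes, and over both directions the share of all genes was 11.1%. In bulk epithelium fewer cells that express a gene and less RNA per cell cannot be told apart.

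Of the 32 members tested, 20 had a higher and 12 a lower mean in the Cre-positive group, whereas 38.5% of all genes had a higher mean. Their median difference was 0.05, against -0.05 over all genes. The direction of this median depended on single arrays: it was 0.14 when Cre-negative array 1 was left out and 0.07 when Cre-positive array 1 was, but -0.05 when Cre-negative array 2 and -0.04 when Cre-positive array 2 was left out. In 6 members both Cre-positive arrays lay above both Cre-negative arrays (13.5% of all genes), namely Slc26a2, Slc9a2, Slc9a3, Slc12a2, Slc12a7 and Aqp8. In 4 they lay below (34.7% of all genes), namely Slc4a1, Scnn1b, Aqp3 and Aqp4. Among the 30 brighter members the counts were 6 and 2, against 16.5% and 24.8% of the genes above the 60th percentile. Differences of at least 0.5 in either direction were found for 5 members, against 9.56% of all genes.

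**Figure D1:**
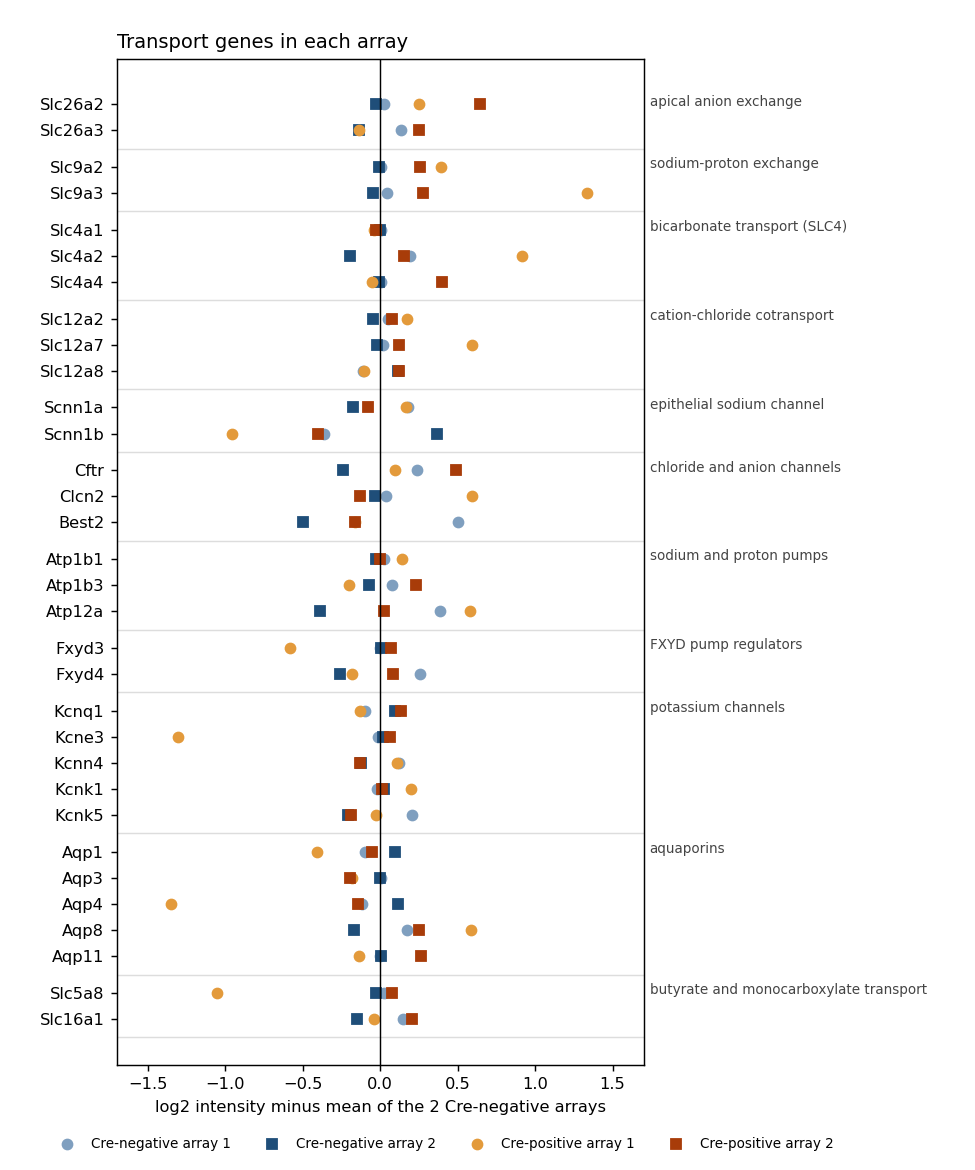
Log2 intensity of each of the 32 transport genes tested, in each of the 4 arrays, as the distance from the Cre-negative mean, grouped by role. Circles are array 1 and squares array 2 of each group. Cre-positive array 1 lies more than 1 from the Cre-negative mean for Slc9a3 (1.34), Kcne3 (-1.31), Aqp4 (-1.35) and Slc5a8 (-1.05), where Cre-positive array 2 lies between -0.14 and 0.27.

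The Cre-positive mice differed from each other more than the Cre-negative mice did. The median absolute gap between the 2 arrays of a group was 0.37 in the Cre-positive and 0.17 in the Cre-negative group for the members, and 0.22 and 0.12 for all genes. A gap of at least 0.5 between the Cre-positive arrays was found for 9 members (21.8% of all genes) and between the Cre-negative arrays for 4 (7.51%). Cre-positive array 1 stood apart in other gene groups as well. The distal colon position list (Hoxa13, Hoxb13, Hoxd11, Hoxd12, Hoxd13 and the hindgut hormone Insl5) had 4 of 6 genes above the filter, with Hoxd11 and Hoxd12 at the bottom of the scale. Its summed intensity was 6876 and 5997 in the Cre-negative arrays, and 3052 and 5298 in Cre-positive arrays 1 and 2. Of the neutrophil list 4 of 6 genes were named and S100a8 and S100a9 were the ones clearly above the bottom. Its sum was 120.5 and 68.2 in the Cre-negative arrays, and 1556 and 74.6 in the Cre-positive arrays. The interferon-stimulated list (6 of 8 genes named, all above the 60th percentile) summed to 2008 and 1784 against 8585 and 2843. That list was chosen because its genes were already known to differ between the Cre-positive arrays, so its sums are a description and no separate evidence that array 1 stood apart. The surface colonocyte list, without its transport members, summed to 152943 and 163905 against 201237 and 179361, with Cre-positive array 1 the highest. In the goblet cell list array 1 was not the extreme, with 171731 and 188637 against 197521 and 206306. The part of these lists in the transport gene values was not tested.

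**Figure D2:**
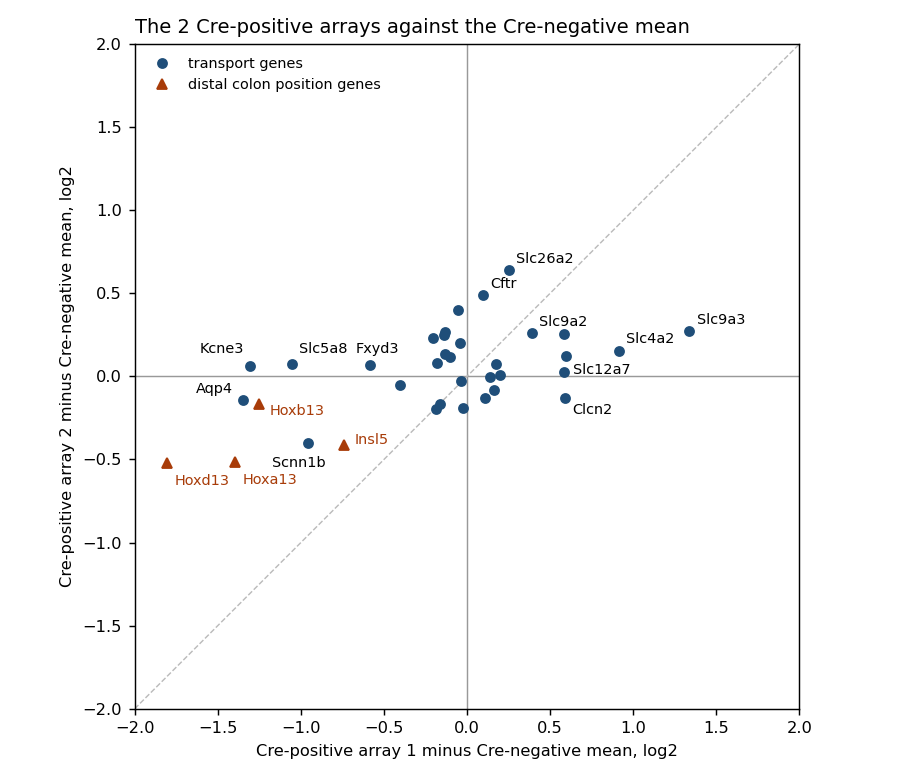
Each point is a gene, with its log2 distance from the Cre-negative mean in Cre-positive array 1 (horizontal) and in Cre-positive array 2 (vertical). The dashed line marks equal distances, circles are the 32 transport genes and triangles the 4 measured genes of the distal colon position list. Kcne3, Slc5a8 and Aqp4 lie far to the left at heights of 0.07, 0.07 and -0.14. Hoxb13 lies near them, and Hoxa13, Hoxd13 and Insl5 lie lower on the vertical axis.

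Apical anion exchange showed a difference in Slc26a2 and little in Slc26a3. Slc26a2, a sulphate and anion exchanger of colonocytes, measured log2 12.88 and 12.83 in the Cre-negative and 13.11 and 13.50 in the Cre-positive arrays. The groups did not overlap, and the difference of 0.45 is 1.36-fold (limma adjusted p = 0.476). It was 0.25 without Cre-positive array 2. Its second probe set gave 0.46, again without overlap, while the dimmest gave -0.20 with Cre-positive array 2 lowest (8.10). Slc26a3, the chloride-bicarbonate exchanger whose human counterpart is mutated in congenital chloride diarrhoea, measured 13.11 and 12.84 against 12.84 and 13.22. The groups overlapped, with a difference of 0.06 ± 0.19 (SE). The Cre-positive arrays bracketed the Cre-negative ones in its other bright probe sets as well (12.03 and 12.87 around 12.53 and 12.32, and 10.43 and 12.18 around 11.13 and 11.50).

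Both sodium-proton exchangers stood higher in both Cre-positive arrays. Slc9a2 (NHE2) measured log2 10.62 and 10.61 in the Cre-negative and 11.00 and 10.87 in the Cre-positive arrays. These groups were tight and separate. The difference of 0.33 is 1.25-fold, with an unadjusted p of 0.0323 (limma adjusted p = 0.406). It is the smallest of the 30 brighter members, and 2.86% of the genes above the 60th percentile were higher at an unadjusted p under 0.05. In the authors' deposited table the same probe set has a fold of 1.25 and a p-value of 0.0385. These values come from the same 4 arrays, so they are no separate evidence for Slc9a2. The authors' p-values were under 0.05 for 2 of the 32 members (6.25%), against 10.8% of all genes tested. The other member was Aqp3 (0.0006), a dim probe set. Slc9a3 (NHE3), the main apical exchanger of sodium absorption, measured 9.85 and 9.76 against 11.15 and 10.08. Here the difference of 0.81, or 1.75-fold, rested on Cre-positive array 1, and it was 0.27 without that array (limma adjusted p = 0.535 with all arrays). A second, much dimmer Slc9a3 probe set (4.01 to 4.30) gave -0.01. The scaffold gene Slc9a3r1, whose product anchors NHE3, measured 11.68 and 11.49 against 12.18 and 11.62. Cre-positive array 1 was again the highest, but the groups overlapped, with a difference of 0.32 ± 0.24 (SE).

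Among the SLC4 bicarbonate transporters Slc4a2 (AE2), an anion exchanger of the basolateral membrane, measured log2 10.79 and 10.40 in the Cre-negative and 11.51 and 10.76 in the Cre-positive arrays. The groups overlapped, since Cre-positive array 2 lay below Cre-negative array 1, and the difference of 0.53 was 0.16 without Cre-positive array 1 (limma adjusted p = 0.565 with all arrays). Slc4a4 (NBCe1), the sodium-bicarbonate cotransporter that loads secreting cells, differed by 0.17 ± 0.19 (SE) with overlapping groups. Its 4 probe sets above the filter disagreed, with differences from -0.35 to 0.36. In the 2 dimmer ones Cre-positive array 1 was the highest (9.36 and 8.97) and Cre-positive array 2 the lowest (6.60 and 6.40) of the 4 arrays. Slc4a1, the anion exchanger of red blood cells, stayed between 3.65 and 3.69 in all arrays. All 5 named genes of the red blood cell list lay at or near the bottom of the scale too.

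Of the cation-chloride cotransporters Slc12a7 had the largest difference. Slc12a2 (NKCC1), which brings chloride into secreting crypt cells, measured log2 12.61 and 12.51 in the Cre-negative and 12.74 and 12.64 in the Cre-positive arrays. The groups were separate by a narrow margin, with a difference of 0.13 ± 0.09 (SE, limma adjusted p = 0.608), and its other probe sets gave -0.28 and 0.00. Slc12a7 (KCC4), a potassium-chloride cotransporter, measured 9.49 and 9.46 against 10.07 and 9.60. That difference of 0.36 was 0.12 without Cre-positive array 1 (limma adjusted p = 0.553 with all arrays). The second Slc12a7 probe set gave 0.03 with overlapping groups (7.65 and 7.70 against 7.97 and 7.45). Slc12a8, a less studied relative, differed by 0.01 ± 0.15 (SE). It measured 10.33 and 10.34 in the arrays numbered 1 of both groups, and 10.56 and 10.57 in those numbered 2.

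STAT factors bind the palindrome TTCNNNGAA, which reads the same on both strands. RefSeq promoter windows (GRCm38.p6, 250 bases before to 50 after a gene's start) were given for 26 of the 35 genes. Slc26a2, Slc9a2, Slc4a1, Slc12a2, Scnn1a, Best2, Atp12a, Kcnq1 and Aqp4 had no entry. These letters occurred in 1 of the 26 genes (3.85%), which was Slc12a8, against 9.55% of all 27025 genes with a window and 8.3% of all windows. They were in 1 of the 3 windows of Slc12a8, on chromosome 16 (chr16:33517078-33517377, plus strand), starting 245 bases before the start. For comparison Socs3, a well-known STAT3 target, has them 154 bases before its start (chr11:117969317-117969616, minus strand). The windows are shown 5′ to 3′ with the palindrome in capitals, as the transport gene and the reference gene that share this motif.
Slc12a8: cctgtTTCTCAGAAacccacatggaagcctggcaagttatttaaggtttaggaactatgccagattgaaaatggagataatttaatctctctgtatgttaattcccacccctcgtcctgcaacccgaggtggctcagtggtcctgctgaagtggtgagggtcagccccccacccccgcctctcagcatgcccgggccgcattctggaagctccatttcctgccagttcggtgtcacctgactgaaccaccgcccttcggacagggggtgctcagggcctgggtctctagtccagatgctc
Socs3: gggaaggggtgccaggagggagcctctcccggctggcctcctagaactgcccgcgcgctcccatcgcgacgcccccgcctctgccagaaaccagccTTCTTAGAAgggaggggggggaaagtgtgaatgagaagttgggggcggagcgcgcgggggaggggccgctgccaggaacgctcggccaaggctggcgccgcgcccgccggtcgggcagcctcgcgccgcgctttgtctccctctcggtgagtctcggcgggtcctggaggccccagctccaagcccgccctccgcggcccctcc
Socs3 transcript measured log2 8.77 and 9.08 in the Cre-negative and 7.67 and 6.65 in the Cre-positive arrays. Its difference was -1.77 ± 0.42 (SE, limma adjusted p = 0.322), while Slc12a8 differed by 0.01. A match of letters is a description and not a measured binding site, and a window without them says nothing about STAT3 elsewhere in a gene.

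The epithelial sodium channel was measured through 2 of its 3 subunits. Scnn1b measured log2 5.22 and 5.95 in the Cre-negative and 4.63 and 5.18 in the Cre-positive arrays. Both Cre-positive values lay below both Cre-negative values, but Cre-positive array 2 was only just under Cre-negative array 1. The difference of -0.68 is 1.60-fold lower (limma adjusted p = 0.543). It was -1.05 or -0.31 when Cre-negative array 1 or 2, in that order, was left out, and -0.40 when Cre-positive array 1 was. Scnn1b was dim, and with an offset of 16 before log2 the difference was -0.48. The pore subunit Scnn1a measured 8.0 and 7.64 against 7.98 and 7.74, with a difference of 0.04 ± 0.21 (SE). Its arrays numbered 1 were higher than those numbered 2 in both groups. The third subunit, Scnn1g, was at the bottom of the scale.

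Chloride and anion channels overlapped between the groups. Cftr, the cyclic AMP-gated chloride channel of the crypt, measured log2 10.68 and 10.20 in the Cre-negative and 10.54 and 10.93 in the Cre-positive arrays. The difference of 0.29 ± 0.25 (SE) belonged to a probe set that may bind related transcripts, and the other Cftr probe set gave -0.72 (6.61 and 7.64 against 5.74 and 7.07). The direction for Cftr is thus not settled by these arrays. Clcn2, a basolateral chloride channel, measured 10.76 and 10.69 against 11.32 and 10.60, and its difference of 0.23 turned to -0.13 without Cre-positive array 1. Best2, a bicarbonate channel of colonic goblet cells in the mouse, measured 8.35 and 7.35 in the Cre-negative arrays and 7.68 in both Cre-positive arrays. Its spread lay within the Cre-negative group, and the difference was -0.16 ± 0.40 (SE).

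The pump subunits varied little between groups. Atp1b1, the beta subunit of the sodium pump, measured log2 15.06 and 15.01 in the Cre-negative and 15.17 and 15.03 in the Cre-positive arrays, a difference of 0.07 ± 0.11 (SE). Atp1b3, another beta subunit, differed by 0.02 ± 0.19 (SE). Atp12a, the colonic proton-potassium pump, measured 11.99 and 11.22 against 12.19 and 11.63. The spread within each group exceeded the difference of 0.30 ± 0.36 (SE). The FXYD proteins are small membrane proteins that tune the sodium pump. Fxyd3 measured 11.41 and 11.42 in the Cre-negative arrays, and 10.83 and 11.48 in Cre-positive arrays 1 and 2. Its difference of -0.26 ± 0.25 (SE) became 0.07 without Cre-positive array 1. Fxyd4, known from the rat as the corticosteroid-induced CHIF, measured 8.82 and 8.31 against 8.38 and 8.65, a difference of -0.05 ± 0.24 (SE).

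Of the potassium channels only Kcne3 had a difference over 0.5. Kcne3, the beta subunit that keeps KCNQ1 open in the basolateral membrane, measured log2 12.51 and 12.55 in the Cre-negative and 11.22 and 12.60 in the Cre-positive arrays. Cre-positive array 2 was the highest of the 4, so the groups overlapped and the difference of -0.62 became 0.07 without array 1 (limma adjusted p = 0.631 with all arrays). Its partner Kcnq1 measured 9.33 and 9.52 against 9.30 and 9.56, the same order of arrays over a much narrower range, with a difference of 0.0011 ± 0.16 (SE). The calcium-activated Kcnn4 measured 10.28 and 10.04 against 10.27 and 10.03, a difference of -0.01 ± 0.15 (SE). Its second probe set gave -0.22 without overlap (9.76 and 9.75 against 9.40 and 9.67). The two-pore channels Kcnk1 and Kcnk5 differed by 0.10 ± 0.11 and -0.11 ± 0.19 (SE). Their second probe sets gave -0.08 and -0.33, in that order, with overlapping groups.

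Aquaporins stood on both sides of 0. Aqp4, a water channel of the basolateral membrane, measured log2 13.27 and 13.50 in the Cre-negative and 12.03 and 13.24 in the Cre-positive arrays. Cre-positive array 2 lay just below the lower Cre-negative array, so the separation was narrow. The difference of -0.75 is 1.68-fold lower (limma adjusted p = 0.568) and was -0.14 without Cre-positive array 1. The other Aqp4 probe sets gave larger differences in the same direction. The second measured 11.49 and 11.66 against 9.91 and 10.76, a difference of -1.24 with no overlap. The third measured 9.24 and 10.55 against 7.22 and 9.81, a difference of -1.38 with overlapping groups. Aqp4 was the gene among the 17 members with several probe sets above the filter in which every probe set differed by more than 0.5.

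Aqp8, a water channel of surface colonocytes, measured log2 11.82 and 11.47 in the Cre-negative and 12.23 and 11.90 in the Cre-positive arrays. The groups were separate by less than the spread within each, and the difference of 0.42 ± 0.20 (SE) is 1.34-fold (limma adjusted p = 0.523). It was 0.59 or 0.25 when Cre-negative array 1 or 2, in that order, was left out. Aqp1, known as a water channel of endothelium and red cells, measured 10.03 and 10.23 against 9.72 and 10.08, with a difference of -0.23 ± 0.17 (SE), while the 10 endothelial markers were all below the filter. Aqp11, an intracellular aquaporin, differed by 0.07 ± 0.19 (SE). Aqp3, the glycerol-transporting basolateral aquaporin, measured 3.50 and 3.49 against 3.31 and 3.30, and its other 3 probe sets also lay between 2.28 and 3.22. The difference of -0.19 ± 0.03 (SE, limma adjusted p = 0.244) lies at the bottom of the scale. There 28.4% of the genes between the 40th and 60th percentile were lower at an unadjusted p under 0.05, so no change of Aqp3 is read from it.

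The butyrate transporters differed from each other in their pattern across mice. Slc5a8 (SMCT1), the sodium-coupled apical monocarboxylate transporter, measured log2 12.61 and 12.56 in the Cre-negative and 11.53 and 12.66 in the Cre-positive arrays. Cre-positive array 2 was again the highest, and the difference of -0.49 became 0.07 without array 1 (limma adjusted p = 0.644 with all arrays). Slc16a1 (MCT1), the proton-coupled transporter, measured 14.15 and 13.85 against 13.96 and 14.20, a difference of 0.08 ± 0.17 (SE) within the spread of both groups. Bsg, the chaperone that carries MCT1 to the membrane, measured 13.75 and 13.88 against 13.83 and 13.82. Kcne3, Slc5a8, Aqp4 and Fxyd3, the members with the lowest values in Cre-positive array 1 relative to array 2, were picked out after their values were seen. Of the 4 measured distal colon position genes, Hoxb13 was likewise low in Cre-positive array 1 alone (12.02 and 11.67 against 10.59 and 11.68). The other 3 were lower in both Cre-positive arrays, with 7.56 and 8.24 against 6.51 and 7.38 for Hoxa13, 8.07 and 7.55 against 6.0 and 7.28 for Hoxd13, and 11.15 and 11.12 against 10.39 and 10.72 for Insl5.

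**Figure D3:**
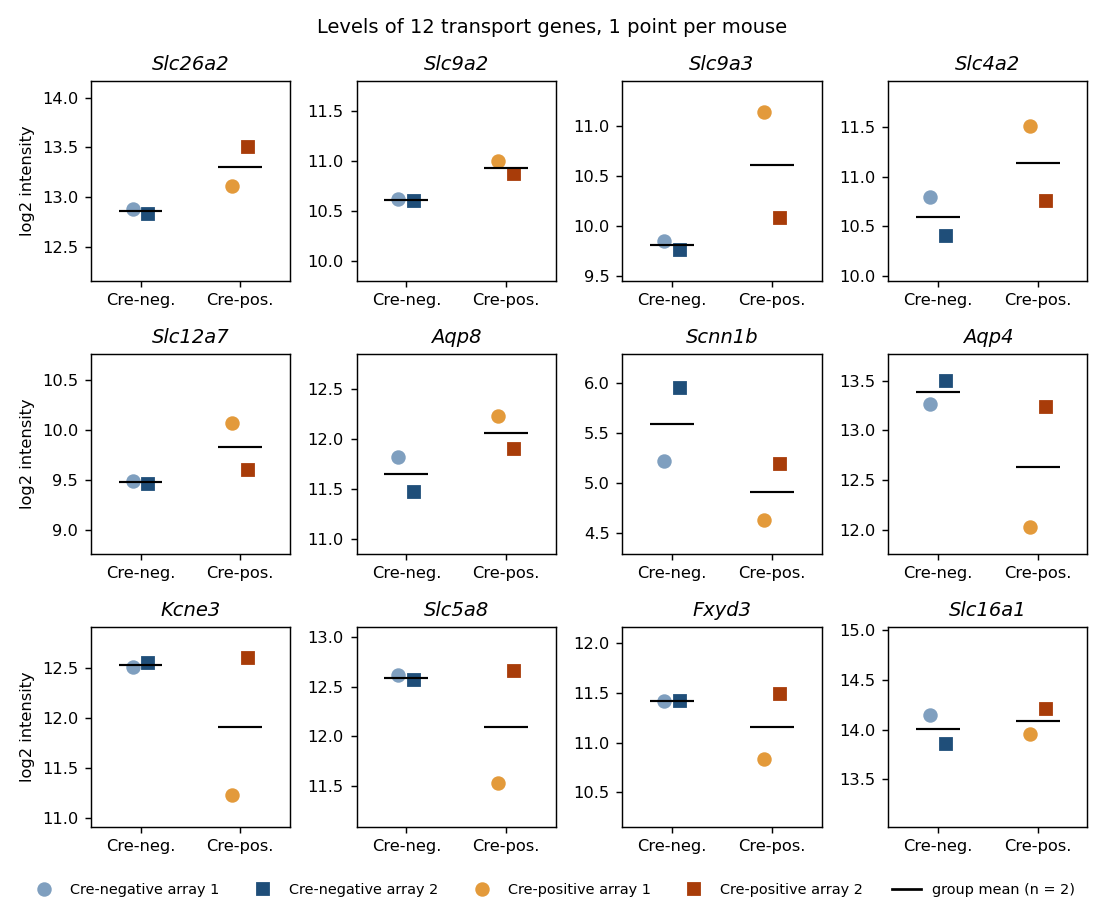
Log2 intensity of 12 transport genes, 1 point per mouse, with group means as horizontal lines (n = 2). Every panel spans 2 log2 units. Slc9a2 is separate and tight in both groups, while Kcne3, Slc5a8 and Fxyd3 have 3 arrays at 1 level and Cre-positive array 1 below them.

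Probe sets of the same gene gave a check that does not depend on the choice of the brightest. The members had 66 probe sets, of which 57 lay above the filter. In 17 members several probe sets did so, and in 9 of these they differed in sign (Atp1b1, Cftr, Kcnk1, Slc12a2, Slc16a1, Slc26a2, Slc26a3, Slc4a4 and Slc9a3). In the other 8 (Aqp3, Aqp4, Aqp11, Kcnk5, Kcnn4, Slc12a7, Slc12a8 and Slc4a1) all went the same way. The probe sets of Aqp3 and Slc4a1 were dim, as was the second probe set of Slc16a1 (2.75 to 3.11). The negative differences of Slc26a3 (-0.0069) and Slc9a3 (-0.0099) were close to 0. Among the members that went the same way, the second probe set of Slc12a7 (0.03) and the brightest of Slc12a8 (0.0075) were close to 0 too. Agreement over all genes with several probe sets was not counted, so these counts are a description only.

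**Figure D4:**
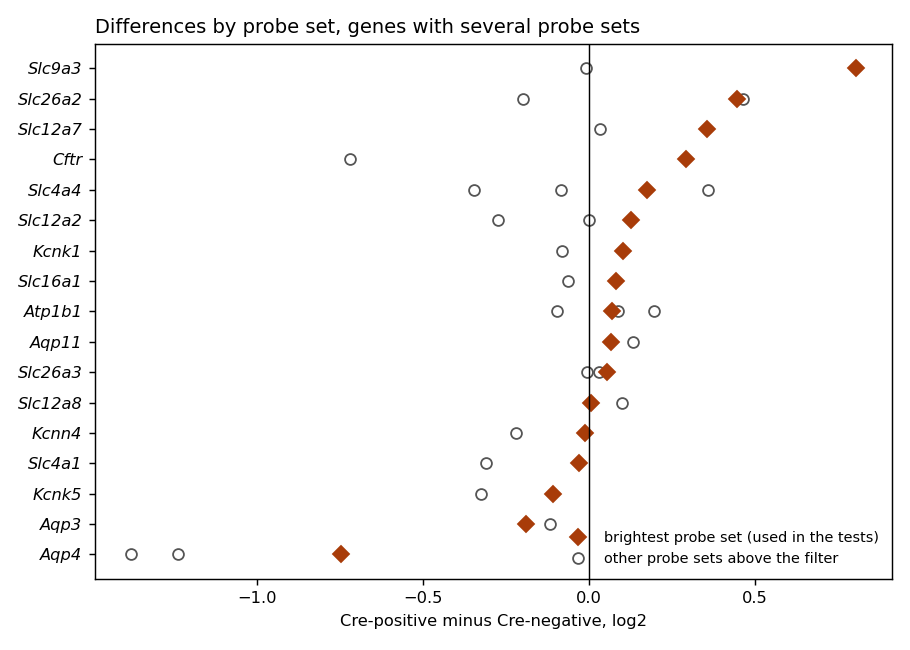
Log2 difference between the Cre-positive and Cre-negative means for every probe set above the filter, in the 17 members with several such probe sets. Diamonds mark the brightest probe set and open circles the others. All 3 Aqp4 probe sets lie at -0.75 or lower, and the Cftr probe sets lie on opposite sides of 0 (0.29 and -0.72).

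A wider list of 83 genes of the same pathways, covering scaffolds, hormone control, secretagogue signalling and further channels, had 75 genes named on the array and 50 tested. Of these, 27 had a higher and 23 a lower mean, with a median difference of 0.02. Limma called 0 of the 50, and before adjustment 4 stood higher and 3 lower with p under 0.05 (2.54% and 8.51% of all genes). Higher were Wnk1 and Wnk4, kinases that control cation-chloride cotransport, Adcy6, an adenylate cyclase that makes cyclic AMP, and Fxyd5. Wnk1 measured log2 10.22 and 10.35 in the Cre-negative and 10.79 and 10.82 in the Cre-positive arrays, a difference of 0.52 (limma adjusted p = 0.265). Its other probe set above the filter gave -0.13, with overlapping groups (8.44 and 7.99 against 9.59 and 6.57). Wnk4 measured 8.31 and 8.41 against 8.73 and 8.80, and Adcy6 9.84 and 9.76 against 10.32 and 10.23, with differences of 0.40 and 0.47 (limma adjusted p = 0.414 and 0.286). By the brightest probe set of each of these 3 genes, both Cre-positive arrays lay together, apart from both Cre-negative arrays. They were named for an unadjusted limma p under 0.05, which favours such a pattern, so it is no separate evidence. Of the 50 genes, 11 were higher and 11 lower without overlap, against 13.5% and 34.7% of all genes. Fxyd5 was dim (3.77 and 4.23 against 4.77 and 4.53).

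The 3 lower genes, Slc26a1, Slc12a1 and Aqp7, were dim in every array (log2 2.78 to 3.40), as Aqp3 was. The largest difference of the wider list belonged to Clca4b, a member of the calcium-activated chloride channel regulator family, with 9.25 and 9.95 in the Cre-negative and 8.62 and 6.50 in the Cre-positive arrays (difference -2.04, limma adjusted p = 0.499). Here Cre-positive array 2 was the low one, and the difference was -0.98 without it. Sgk1, the aldosterone-induced kinase that raises sodium channel activity, measured 12.77 and 12.11 against 13.23 and 12.32. Nr3c2, the mineralocorticoid receptor, measured 10.09 and 10.21 against 9.87 and 10.19, and differed by -0.12 ± 0.16 (SE).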

How the data were processed

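Colon epithelium RNA of 4 mice was measured on 4 arrays, 2 per group. The deposited intensity values were GC-RMA signals, per the submitters' processing notes. The authors' other deposited table held these intensities as whole numbers (a rounded score), log2 values relative to the Cre-negative mean, an absolute fold and a p-value per probe set, made with ArrayAssist per the file headers. Rounded values differed from the first table by at most 0.5.

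Differences are Cre-positive minus Cre-negative log2 intensities, tested in R 4.3.3 by limma 3.58.1 (lmFit, eBayes with intensity trend, two-sided, Benjamini-Hochberg over 12659 genes, threshold 0.05). Residual degrees of freedom were 2, plus a prior of 1.58. SE is the moderated standard error. Precision is limited by having 2 arrays per group. Of 45101 probe sets 34945 named 1 gene, and 34741 matched the reference table by gene ID. The fit was tested on simulated data.

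The members and lists were chosen with earlier results of these data known. Array values were to be given for members with an unadjusted p under 0.05, a difference of at least 0.5, or the brightest probe set of a role group, and for wider genes with an unadjusted p under 0.05 or a difference of at least 1. Others were added after their values were seen. The 14 alternatives were other scalings, filters, variance models, probe set rules, an offset of 16, the replicate number as a block, and each array left out.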

Additional observations from a re-analysis of the deposited data

How the results depend on the processing

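Under all 14 alternatives limma, or the plain equal-variance test in its place, called 0 members and 0 genes after adjustment. The number of members at an unadjusted p under 0.05, 2 as reported, was 4 without the filter on dim genes, 1 above the 60th percentile and 1 to 10 with single arrays left out, 10 without Cre-positive array 2. The replicate numbers were shared by the groups, but no label says what they mark. Same-numbered arrays deviated together over all genes tested (r = 0.423), and with the replicate number as a block 4 members were under 0.05. The shares of all genes in these other fits were not counted, so the counts are not read as a result about the members. Of the 2 members reported, Aqp3 lies below the 60th percentile and so was not in the fit of genes above it. The cause of the other changes was not tested. Of the 32 members 12 kept their direction under all alternatives that gave them a value: Slc26a2, Slc9a2, Slc9a3, Slc4a1, Slc4a2, Slc12a7, Scnn1b, Kcnk1, Aqp1, Aqp3, Aqp4 and Aqp8. The other 20 reversed at least once. The changed filters, the variance models and the replicate block leave each difference as it was. Only the scalings, the probe set rules, the offset and the left-out arrays could therefore reverse a direction. The share of all genes that kept their direction was not counted. Of the 12, Slc4a1 and Aqp3 were dim, and Kcnk1 was 0.0105 without Cre-positive array 1. With the mean of all probe sets Slc12a2 gave -0.0498 and Cftr -0.21, Cftr gave -0.72 by probe sets without an s or x suffix, and Kcnn4 gave 0.0050 after quantile normalization. Leaving out single arrays gave ranges that crossed 0 for the rest: Slc26a3 -0.14 to 0.25, Slc4a4 -0.054 to 0.40, Slc12a8 -0.11 to 0.12, Scnn1a -0.14 to 0.22, Clcn2 -0.13 to 0.59, Best2 -0.66 to 0.34, Atp1b1 -0.00080 to 0.14, Atp1b3 -0.20 to 0.23, Atp12a -0.0828 to 0.69, Fxyd3 -0.58 to 0.0663, Fxyd4 -0.31 to 0.21, Kcnq1 -0.13 to 0.13, Kcne3 -1.31 to 0.0651, Kcnn4 -0.13 to 0.11, Kcnk5 -0.32 to 0.10, Aqp11 -0.13 to 0.26, Slc5a8 -1.05 to 0.0726 and Slc16a1 -0.0677 to 0.23. A group left with 1 array was assumed to vary like the other. Dim probe sets have no usable size, and 2 mice per group cannot reach an exact permutation p under 0.333.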
